A study of Mus musculus with 4 samples.

Results

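The 10 genes described here encode carriers that move organic anions across cell membranes: the uptake carriers Slco1a1, Slco1a4, Slco1b2, Slco2a1, Slco2b1 and Slco3a1 and the efflux pumps Abcc2, Abcc3, Abcc4 and Abcg2. They were selected by name from the 25655 genes of the deposited table, and the group was chosen from the difference between HFD-KO and HFD-WT livers, because Slco1a1 changed most of the 10 in that comparison. The values of this comparison are therefore given for the members as a description, without a test. All 10 genes passed edgeR's filter on low counts, which left 12967 genes.

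Liver RNA of HFD-fed male mice was sequenced in 2 HFD-WT (ADAR2+/+/GluR-B R/R) and 2 HFD-KO (ADAR2-/-/GluR-B R/R) libraries. The mice were of a B6129S background, began the HFD at an age of 5 weeks and were fed it for 12 weeks. GluR-B R/R, an allele that encodes the edited form of a glutamate receptor subunit, was present in both genotypes. ADAR2 is an enzyme that converts adenosine to inosine in RNA. The labels do not say whether a library holds 1 mouse, so the p-values measure the spread between these libraries, which may be technical.

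The liver takes bile acids, bilirubin, steroid conjugates, thyroid hormones and many drugs from the blood, conjugates them and returns them to bile or blood. The Slco genes encode the organic anion transporting polypeptides (OATPs), which work on the blood side of the cell. Abcc2 (MRP2) and Abcg2 (BCRP) export conjugates into bile, whereas Abcc3 (MRP3) and Abcc4 (MRP4) return them to blood. Slco1a1 and Slco1a4 are known for opposite sex bias in mouse liver, Slco1a1 being a male-predominant gene that depends on growth hormone and androgens.

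Total counts ranged from 24480798 to 28691330 per library, so that 3 counts, taken as the smallest detectable number, stood for 0.105 to 0.123 CPM (CPM are reads scaled to the TMM-adjusted library total). Adarb1, which encodes ADAR2, had 15.7 and 19.8 CPM in HFD-WT and 6.23 and 9.54 CPM in HFD-KO livers (log2FC -1.17 ± 0.20, adjusted p = 0.159 by edgeR). Here log2FC is the log2 ratio of HFD-KO to HFD-WT, and ± gives its standard error. Reads on the targeted gene were thus found in either HFD-KO library, and their exons of origin are not given by gene totals. Hepatocyte markers dominated every library, with summed levels of 10 genes between 90966 and 107494 CPM. Kupffer cell and macrophage markers summed to 409 and 508 CPM in HFD-WT and to 334 and 318 CPM in HFD-KO livers, with 10 of 11 genes lower, and 7 of 9 stellate cell markers were lower as well, with sums of 480.0 and 532 against 444 and 369 CPM. Erythroid markers were higher in 6 of 6 genes, with sums of 757 and 601 CPM in HFD-WT and 811 and 1147 CPM in HFD-KO livers. B and plasma cell markers, 7 of 7 higher, summed to 6.42 and 5.85 against 21.6 and 12.2 CPM. Of the 12967 genes tested, 6685 had a log2FC above 0 and 6282 below 0. No marker of any list had an adjusted p under 0.05 by edgeR. Of 8 genes of adrenal, kidney and pancreas, 2 passed the filter, and their list summed to 10.2 to 12.8 CPM. The part of the marker differences in the values below was not tested, and marker sums given beside a gene are a description.

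Slco1a1, Slco1a4 and Slco1b2 lie close together on chromosome 6, and their upstream sequences are shown because these neighbours differed in direction, together with that of Abcc4, which was lowest in HFD-KO relative to HFD-WT livers. RefSeq starts on GRCm38.p6 were matched for 8 of the 10 genes (13 starts). Each line gives the 250 bases before the start, 5′ to 3′ on the strand of the gene, and capitals mark matches on either strand to any of 4 motifs: the STAT5-type TTCNNNGAA, the antioxidant response core TGACNNNGC, the nuclear receptor hexamer AGGTCA and the xenobiotic response core GCGTG.
Slco1a1, chr6:141946963-141947212, minus strand: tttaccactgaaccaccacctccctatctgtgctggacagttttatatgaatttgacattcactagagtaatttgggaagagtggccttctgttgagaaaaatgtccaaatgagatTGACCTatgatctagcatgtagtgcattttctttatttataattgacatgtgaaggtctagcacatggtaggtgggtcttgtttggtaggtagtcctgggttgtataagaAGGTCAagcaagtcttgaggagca
Slco1a4, chr6:141856221-141856470, minus strand: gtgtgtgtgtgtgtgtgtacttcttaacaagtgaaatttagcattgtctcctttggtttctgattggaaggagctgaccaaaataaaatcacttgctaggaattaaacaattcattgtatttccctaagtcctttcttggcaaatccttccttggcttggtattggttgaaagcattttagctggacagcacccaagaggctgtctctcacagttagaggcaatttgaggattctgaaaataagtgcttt
Slco1b2, chr6:141629268-141629517, plus strand: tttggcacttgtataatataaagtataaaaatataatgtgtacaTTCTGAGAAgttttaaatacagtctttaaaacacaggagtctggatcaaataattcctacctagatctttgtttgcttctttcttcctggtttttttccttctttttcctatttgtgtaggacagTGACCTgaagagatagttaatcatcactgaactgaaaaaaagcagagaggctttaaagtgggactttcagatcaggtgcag
Abcc4, chr14:118706220-118706469, minus strand: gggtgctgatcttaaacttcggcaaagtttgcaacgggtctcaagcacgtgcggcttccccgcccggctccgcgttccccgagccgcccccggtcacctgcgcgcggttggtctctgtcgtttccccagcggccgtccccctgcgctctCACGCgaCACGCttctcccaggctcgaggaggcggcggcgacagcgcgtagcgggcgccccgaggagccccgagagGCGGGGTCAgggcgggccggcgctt

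The Slco1a1 window held the hexamer AGGTCA at 2 places, from base -134 and from base -24 before the start, and no match to the other 3 motifs. The Slco1a4 window matched none of the 4. The Slco1b2 window held TTCNNNGAA from base -206 and the hexamer from base -81. In the Abcc4 window shown, TGACNNNGC lay from base -25 and GCGTG from bases -101 and -94, with no overlap among the matches. The window of another Abcc4 start, chr14:118676932-118677181, is not shown and matched only TGACNNNGC, from base -23. Of all 32851 RefSeq windows of this length, 7.02% held TTCNNNGAA, 10.2% TGACNNNGC, 14.02% AGGTCA and 28.2% GCGTG. A match is a run of letters and not evidence of binding.

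The order of the levels, compared per kilobase of exon, was led by Slco1b2 (OATP1B2), the main hepatic carrier for bilirubin and unconjugated bile acids. Slco1b2 had 287 and 257 CPM per kilobase in HFD-WT and 314 and 278 in HFD-KO livers, a level that 209 of the 12967 genes exceeded. Abcc3 followed with 115 and 113 against 111 and 95.2 CPM per kilobase, and Abcc2 with 69.3 and 71.9 against 71.5 and 63.4 CPM per kilobase. Both efflux pumps thus stood among the most abundant tested mRNAs, at the percentiles 95.9 and 94.0. Slco2b1, a carrier of steroid sulfates, had 28.2 and 29.4 against 29.1 and 28.3 CPM per kilobase, and Slco1a4 had 23.1 and 20.4 against 19.0 and 18.1 CPM per kilobase. Abcg2 came next, with 11.2 and 11.4 against 9.98 and 8.82 CPM per kilobase.

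**Figure D1:**
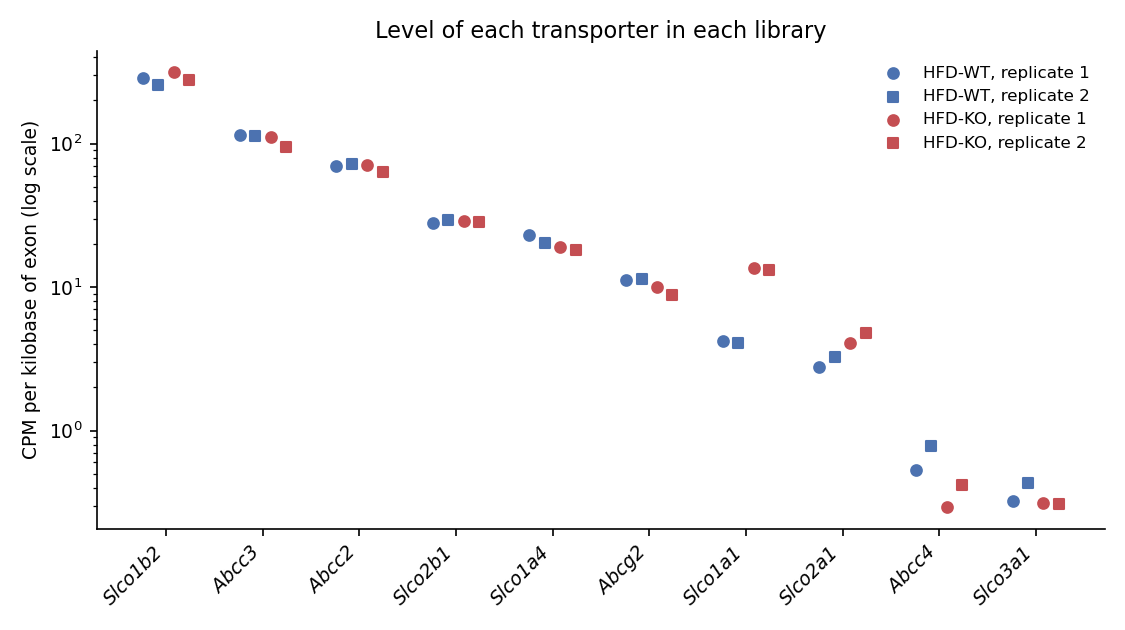
Level of the 10 transporters in each library, in CPM per kilobase of exon on a log axis, ordered by the HFD-WT mean; points are single libraries, in blue for HFD-WT and in red for HFD-KO. Slco1b2 lies highest at 257 to 314 CPM per kilobase, and Slco1a1 is the gene whose HFD-KO points (13.5 and 13.2) lie far above its HFD-WT points (4.22 and 4.08).

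The lower end of the order held Slco1a1, Slco2a1, Abcc4 and Slco3a1. In HFD-WT livers Slco1a1 stood at place 7 of 10, below Abcg2, with 4.22 and 4.08 CPM per kilobase. In HFD-KO livers it stood at place 6, above Abcg2, with 13.5 and 13.2 CPM per kilobase. By their means, the other 8 genes kept their places in both genotypes. Within HFD-WT livers no gene's range overlapped that of its neighbour in the order, although Slco2b1 exceeded Slco1a4 by only 1.22- to 1.44-fold. Within HFD-KO livers Abcc4 and Slco3a1, with 0.294 and 0.419 and with 0.312 and 0.309 CPM per kilobase, could not be ordered.

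Slco1b2 made up 83.0% and 81.7% of the summed level of the 6 Slco genes in HFD-WT and 82.6% and 81.1% in HFD-KO livers, so its share overlapped between the groups. Slco1a1 contributed 1.22% and 1.30% in HFD-WT and 3.56% and 3.86% in HFD-KO livers. Slco1a4 contributed 6.68% and 6.49% in HFD-WT and 5.01% and 5.27% in HFD-KO livers. The mRNA of Slco1a4 was thus 5.47 and 5.00 times as abundant as that of Slco1a1 in HFD-WT livers, and 1.41 and 1.37 times as abundant in HFD-KO livers. The summed Slco level itself was 345 and 315 CPM per kilobase in HFD-WT and 379.5 and 343 CPM per kilobase in HFD-KO livers, and these ranges overlapped.

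**Figure D2:**
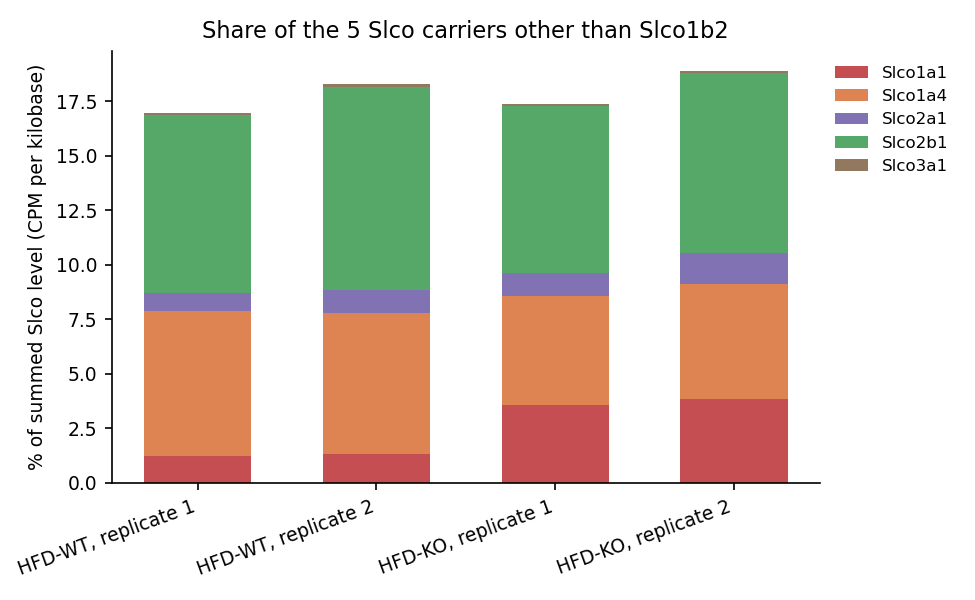
Shares of the 5 Slco genes other than Slco1b2 in the summed Slco level (percent of CPM per kilobase), as stacked bars from 0, with 1 bar for each library. The Slco1a1 segment is 1.22% and 1.30% in HFD-WT and 3.56% and 3.86% in HFD-KO libraries, while the whole bars span 17.0% to 18.9%.

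Of the 4 efflux pumps, Abcc3 made up 58.7% and 57.4% of their summed level in HFD-WT and 57.6% and 56.7% in HFD-KO livers. Abcc2 made up 35.3% and 36.4% in HFD-WT and 37.1% and 37.8% in HFD-KO livers. Per kilobase, the basolateral pump Abcc3 exceeded the canalicular pump Abcc2 in every library, by 1.501- to 1.662-fold. This order rested on the exon lengths derived from the deposited RPKM, 5.41 kb for Abcc3 and 8.68 kb for Abcc2. Without division by length, Abcc3 had 624 and 613 CPM in HFD-WT and 602 and 515 CPM in HFD-KO livers. Abcc2 had 602 and 624 CPM in HFD-WT and 621 and 551 CPM in HFD-KO livers, and so was lower only in HFD-WT replicate 1. Abcc4 was 144- to 378-fold below Abcc3. The summed level of the pumps was 196 and 197 CPM per kilobase in HFD-WT and 193 and 168 CPM per kilobase in HFD-KO livers. Both HFD-KO values lay below both HFD-WT values, but the lower HFD-KO mean rested largely on HFD-KO replicate 2.

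Among the uptake carriers, Slco1a1 and Slco2a1 were higher in both HFD-KO than in both HFD-WT libraries. Slco1a1 (ENSMUSG00000041698, chr6:141853008-141892688, minus strand, GRCm39) encodes OATP1A1, which carries steroid conjugates and bile acids. It was counted by 536 and 493 reads in HFD-WT and by 1562 and 1385 reads in HFD-KO livers, which gave 18.5 and 17.9 CPM and 59.3 and 58.0 CPM. The HFD-KO mean was 3.22-fold the HFD-WT mean, a log2FC of 1.69 ± 0.083. Its replicates differed by 3.2% in HFD-WT and 2.3% in HFD-KO livers, less than the counting error of such a difference, 6.2% and 3.7%. By size of its log2FC Slco1a1 held place 42 of 12967.

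Slco2a1 (ENSMUSG00000032548, chr9:102865911-102973201, plus strand), the prostaglandin transporter, is known from endothelial cells. It had 22.3 and 26.1 CPM in HFD-WT and 32.5 and 38.2 CPM in HFD-KO livers, a log2FC of 0.55 ± 0.12. The 12 endothelial markers summed to 425 and 469 CPM in HFD-WT and to 412 and 427 CPM in HFD-KO livers, 7 of them lower and 5 higher, with none at 0. In such whole-tissue RNA, a change in the number of cells and one in the RNA of each cell cannot be told apart.

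Slco1b2 (ENSMUSG00000030236, chr6:141575244-141632372, plus strand) had 1027 and 921 CPM in HFD-WT and 1122 and 995 CPM in HFD-KO livers, and the groups overlapped (log2FC 0.12 ± 0.11). Its replicates were 10.9% and 12.0% apart, although counting error allowed only 0.85% and 0.87%, so depth did not limit this comparison. Slco2b1 (ENSMUSG00000030737, chr7:99307011-99360547, minus strand) was the most even member, with 182 and 189 CPM in HFD-WT and 188 and 183 CPM in HFD-KO livers and a log2FC of -0.0017 ± 0.079.

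Slco1a4 (ENSMUSG00000030237, chr6:141751166-141801925, minus strand), which encodes OATP1A4, a carrier of bile acids and cardiac glycosides, was lower in both HFD-KO libraries. Its values were 96.2 and 85.1 CPM in HFD-WT and 79.2 and 75.3 CPM in HFD-KO livers, a log2FC of -0.23 ± 0.091. Slco3a1 (ENSMUSG00000025790, chr7:73925167-74204528, minus strand), a widely expressed family member, was the lowest of the uptake carriers. It had 78 and 100 reads in HFD-WT and 69 and 62 reads in HFD-KO livers, or 2.69 and 3.63 CPM and 2.62 and 2.59 CPM. The exact 95% Poisson interval of the lower HFD-WT value, 2.13 to 3.36 CPM, included both HFD-KO values, whereas that of the higher one, 2.96 to 4.42 CPM, lay above both. The HFD-WT replicates were 29.8% apart, against a counting error of 15.1%, and the log2FC of -0.28 ± 0.24 became -0.04 without HFD-WT replicate 2.

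Slco1a1 and Slco1a4 are similar in sequence, and how the authors counted reads that align to several genes is not stated. In GENCODE M21 transcripts, 1.6% of the 50-base stretches of Slco1a1 and 1.6% of those of Slco1a4 also occurred in another gene, for both mainly in other Slco1a genes. Slco1b2, Slco2b1, Slco3a1 and Abcc3 shared none, and the remaining 4 members shared between 0.13% and 0.80%. Slco1a5 and Slco1a6, which lie in the same gene family and are named here after their values were seen, had 0 reads in all 4 libraries, which allows up to 0.105 to 0.123 CPM.

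All 4 efflux pumps had log2FCs below 0, as did 6282 of the 12967 genes tested. That of Abcc2 was 0.017 without HFD-KO replicate 2. For Abcc3, Abcc4 and Abcg2 both HFD-KO values lay below both HFD-WT values, as for 20.3% of all genes tested. Abcc4 (ENSMUSG00000032849, chr14:118720104-118943631, minus strand), a basolateral pump for bile acids and cyclic nucleotides that is low in healthy liver, differed most. It was counted by 95 and 134 reads in HFD-WT and by 48 and 62 reads in HFD-KO livers, or 3.28 and 4.87 CPM and 1.82 and 2.59 CPM. The HFD-KO mean was 54.2% of the HFD-WT mean (log2FC -0.89 ± 0.29), and the log2FC was -0.57 without HFD-WT replicate 2. The replicates of each genotype lay farther apart than counting error, by 39.0% against 13.4% in HFD-WT livers, and the intervals of single libraries touched: 2.65 to 4.01 CPM for the lower HFD-WT and 1.99 to 3.33 CPM for the higher HFD-KO value.

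Abcg2 (ENSMUSG00000029802, chr6:58561508-58672661, plus strand), which exports sulfate conjugates and urate, had 73.2 and 74.1 CPM in HFD-WT and 65.0 and 57.5 CPM in HFD-KO livers, a log2FC of -0.26 ± 0.090. Abcc3 (ENSMUSG00000020865, chr11:94234121-94283823, minus strand), an exporter of glucuronides, had 624 and 613 CPM in HFD-WT and 602 and 515 CPM in HFD-KO livers, a log2FC of -0.15 ± 0.10. Its lower mean rested largely on HFD-KO replicate 2, since HFD-KO replicate 1 was close to the HFD-WT values and the log2FC was -0.04 without HFD-KO replicate 2. Abcc2 (ENSMUSG00000025194, chr19:43770631-43829179, plus strand), the canalicular exporter of conjugated bilirubin, had 602 and 624 CPM in HFD-WT and 621 and 551 CPM in HFD-KO livers, and the groups overlapped (log2FC -0.07 ± 0.098).

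**Figure D3:**
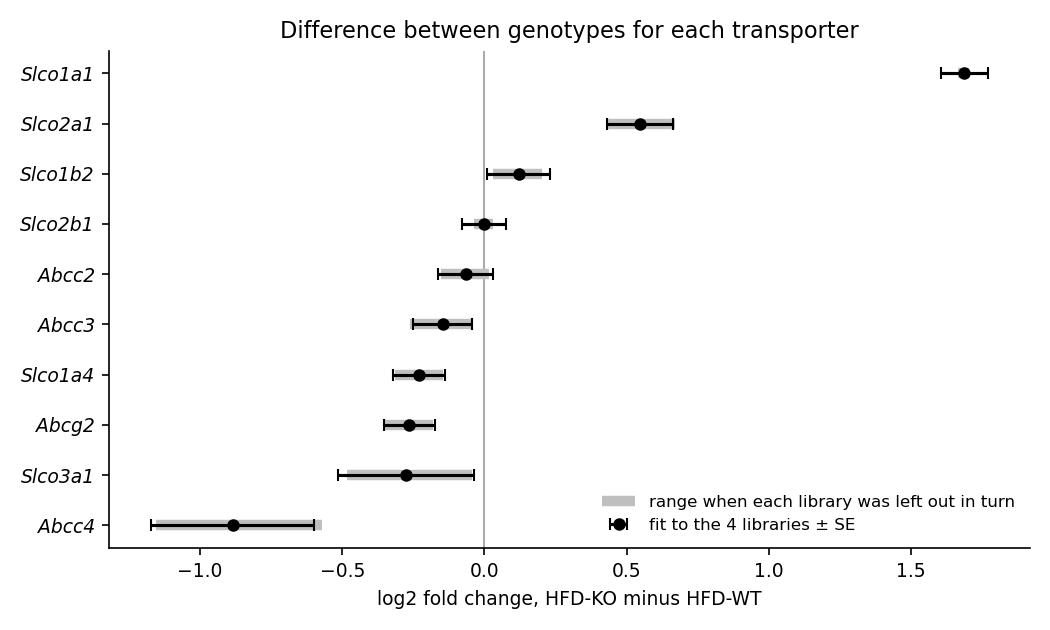
Log2FC (HFD-KO over HFD-WT) of each transporter; points with bars give the fit to the 4 libraries and its standard error, and grey bands give the range over the fits that lack 1 library. Slco1a1 (1.69) and Slco2a1 (0.55) lie to the right of 0, and Abcc4 (-0.89) lies farthest to the left with a band from -1.16 to -0.57.

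Counted over the members, 1 of 10 (Slco1a1) had an adjusted p under 0.05 by edgeR, against 0.0771% of all genes tested, and this is the value that chose the group. Both HFD-KO values lay above both HFD-WT values for 2 of 10 members and below them for 5 of 10, while the same held for 20.5% and 20.3% of all genes tested. The median log2FC was -0.11 over the members and 0.01 over all genes tested. When HFD-WT replicate 2 was left out, 0 members and 0 of all genes had an adjusted p under 0.05. None of the members lies on chromosome 10, which carries Adarb1, whereas 4 lie on chromosome 6.

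The genes whose profile over the 4 libraries came closest to that of Slco1a1 were Mup17, Mup9, Cyp2c54, AI467606 and Mup19, with a root mean square difference of the centred log2 CPM from 0.12 to 0.23. Mup17, Mup9 and Mup19 encode major urinary proteins, pheromone carriers of male mouse liver, and Cyp2c54 encodes a cytochrome P450 that oxidises fatty acids. Mup19 had 950.5 and 613 CPM in HFD-WT and 2091 and 2366 CPM in HFD-KO livers, and AI467606 had 0.380 and 0.363 CPM and 0.987 and 0.963 CPM. These genes were picked for their likeness in the same libraries, so their values are a description, and reads of similar Mup genes may be split among them.

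**Figure D4:**
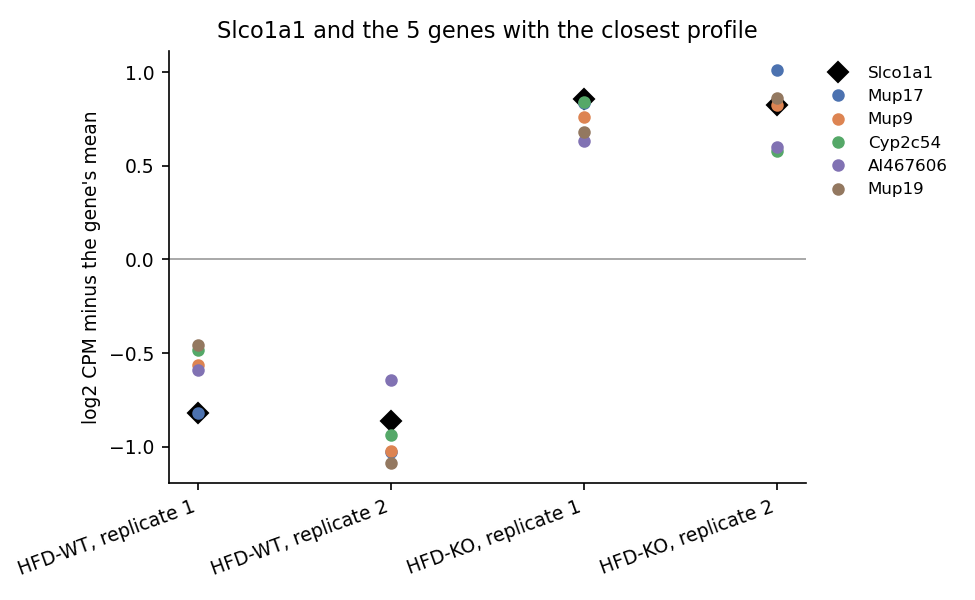
Log2 CPM minus the mean of the gene over the 4 libraries, for Slco1a1 (black diamonds) and the 5 genes with the closest profile (circles), in each library. Slco1a1 lies at -0.82 and -0.86 in HFD-WT and at 0.86 and 0.83 in HFD-KO libraries, and the other genes lie on the same side of 0.

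The genes around these transporters were read from 8 lists, and 0 genes of any list had an adjusted p under 0.05 by edgeR. The share of all genes tested with an unadjusted p under 0.05 was 4.25% higher and 4.73% lower in HFD-KO livers. At an adjusted p under 0.05, DESeq2's Wald test called 55 higher and 60 lower genes over all genes tested. Of the other organic ion uptake carriers, 15 of 23 were tested, and such a p was reached by 3 higher and 1 lower gene (1 higher and 0 lower at an adjusted p under 0.05 by DESeq2). Slc10a1, which encodes NTCP, the sodium-dependent bile acid carrier of the hepatocyte, had 488 and 476 CPM in HFD-WT and 601 and 552 CPM in HFD-KO livers (log2FC 0.26 ± 0.091, adjusted p = 0.473 by edgeR). Slc22a7, the organic anion transporter OAT2, had 8.32 and 9.59 CPM in HFD-WT and 12.1 and 20.5 CPM in HFD-KO livers (log2FC 0.86, adjusted p = 0.359 by edgeR), and its log2FC was 0.43 without HFD-KO replicate 2. Slc22a28, of the same family, had 0.621 and 0.872 CPM in HFD-WT and 3.04 and 1.97 CPM in HFD-KO livers (log2FC 1.75, adjusted p = 0.233 by edgeR). Slc10a2, the bile acid carrier of bile ducts and ileum, had 14.8 and 22.6 CPM in HFD-WT and 11.8 and 13.2 CPM in HFD-KO livers (adjusted p = 0.447 by edgeR). The 8 cholangiocyte markers summed to 85.2 and 105 CPM in HFD-WT and to 76.5 and 65.3 CPM in HFD-KO livers. Most of this sum was Spp1, with a mean of 61.2 CPM over the libraries. Of the 8 markers, 6 were tested, 4 of them lower and 2 higher.

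Of the other ABC pumps and lipid flippases, all 22 were tested, and an unadjusted p under 0.05 was reached by 1 higher and 2 lower genes (0 at an adjusted p by DESeq2). Their median log2FC was -0.02. Abcb11, the bile salt export pump, had 302 and 242 CPM in HFD-WT and 279 and 349 CPM in HFD-KO livers, and the groups overlapped. Abcb4, the phosphatidylcholine flippase of the canaliculus, had 426 and 416 CPM and 438 and 475 CPM (adjusted p = 0.740 by edgeR). Abcb1a, a drug efflux pump, had 7.63 and 8.94 CPM in HFD-WT and 5.13 and 6.57 CPM in HFD-KO livers (adjusted p = 0.462 by edgeR). Abca8a and the sterol exporter Abcg1 had log2FCs of 0.45 and -0.38 (adjusted p = 0.451 and 0.478 by edgeR), and that of Abca8a was 0.21 without HFD-KO replicate 2.

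Scaffold proteins hold the carriers in the membrane, such as radixin, which anchors MRP2. Of 10 such genes, 1 higher and 1 lower gene had an unadjusted p under 0.05 (0 at an adjusted p by DESeq2). Rdx, which encodes radixin, had 145 and 140 CPM in HFD-WT and 157 and 178 CPM in HFD-KO livers (log2FC 0.24, adjusted p = 0.507 by edgeR). Rab11a and Myo5b, which serve the recycling of canalicular proteins, had log2FC of -0.19 and -0.18 (adjusted p = 0.541 and 0.628 by edgeR), and Slc9a3r1, which encodes NHERF1, had 0.08 (adjusted p = 0.809 by edgeR). Pdzk1, the scaffold of OATP1A1, is named after its values were seen and had 66.1 and 75.0 CPM in HFD-WT and 79.1 and 70.6 CPM in HFD-KO livers.

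The transcription factors known to control these transporters include the pregnane X receptor (Nr1i2), the constitutive androstane receptor, NRF2, HNF4A and STAT5. Of 26 tested regulators, 3 higher and 1 lower gene had an unadjusted p under 0.05 (0 at an adjusted p by DESeq2), with a median log2FC of 0.09. Among the 3 higher genes, Cux2 rested on HFD-KO replicate 2, and its groups overlapped. It had 0.483 and 0.327 CPM in HFD-WT and 0.380 and 10.4 CPM in HFD-KO livers, and it is also on the female-predominant list. Nr1i2 had 108 and 114 CPM in HFD-WT and 81.0 and 90.0 CPM in HFD-KO livers (log2FC -0.38 ± 0.089, adjusted p = 0.271 by edgeR). Stat5a had 20.9 and 20.5 CPM in HFD-WT and 24.68 and 26.03 CPM in HFD-KO livers (log2FC 0.29 ± 0.083, adjusted p = 0.370 by edgeR). Stat5b, the more abundant of these STAT5 genes, is named after its values were seen. It had 61.9 and 61.1 CPM in HFD-WT and 61.3 and 69.9 CPM in HFD-KO livers, and the groups overlapped (log2FC 0.09 ± 0.092). Rara, the retinoic acid receptor alpha, was at a log2FC of 0.24 (adjusted p = 0.446 by edgeR), and Hnf4a and Rxra overlapped between the groups.

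Among 23 tested target genes of the xenobiotic and lipid receptors and NRF2, 2 higher and 7 lower genes had an unadjusted p under 0.05 (2 higher and 3 lower at an adjusted p under 0.05 by DESeq2). Cyp3a11, a drug-metabolising P450 induced through the pregnane X receptor, had 1545 and 1262 CPM in HFD-WT and 691 and 831 CPM in HFD-KO livers (log2FC -0.88 ± 0.14, adjusted p = 0.115 by edgeR). Alas1, the entry enzyme of heme synthesis, had 876 and 820 CPM in HFD-WT and 626 and 597 CPM in HFD-KO livers (log2FC -0.47, adjusted p = 0.224 by edgeR). Acot1, a PPAR alpha target, had 60.1 and 64.9 CPM in HFD-WT and 84.3 and 94.0 CPM in HFD-KO livers (log2FC 0.51, adjusted p = 0.172 by edgeR). These 3 genes were picked for the smallest unadjusted p of the list, so the lack of overlap between their groups is a description. Over all genes tested, 20.5% lay higher and 20.3% lower in HFD-KO livers without overlap. On the same counts, DESeq2's Wald test gave adjusted p = 1.2e-07, 0.00091 and 0.0081, which is no independent support. Cyp4a14, a fatty acid hydroxylase that is also on the female-predominant list, had 1853 and 1564 CPM in HFD-WT and 2133 and 2684 CPM in HFD-KO livers (log2FC 0.50, adjusted p = 0.400 by edgeR).

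Conjugation supplies the substrates of the MRP pumps. Of 19 tested genes of bilirubin and conjugate formation, 0 higher and 3 lower genes had an unadjusted p under 0.05. At an adjusted p under 0.05, DESeq2 called 0 of them. Of the 19, 15 had a log2FC below 0, against 6282 of all 12967 genes tested. Their median was -0.12, against 0.01 over all genes tested. Ugt1a1, the bilirubin glucuronosyltransferase, had 704 and 662 CPM in HFD-WT and 698 and 683 CPM in HFD-KO livers, and the groups overlapped, as did those of Ugt2b5. Ugdh, which makes UDP-glucuronate, Ugt1a6a and the heme oxygenase gene Hmox1 had log2FCs of -0.29, -0.27 and -0.24 (adjusted p = 0.487, 0.473 and 0.477 by edgeR). Ugdh, Hmox1 and Gclc are also on the list of receptor and NRF2 targets. There, Ugdh and Hmox1 were again counted among the lower genes with an unadjusted p under 0.05.

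Because Slco1a1 is male-predominant and Slco1a4 female-predominant, other genes of known sex bias were read beside them. Of 22 tested male-predominant genes, 9 higher and 0 lower genes had an unadjusted p under 0.05 (3 higher at an adjusted p under 0.05 by DESeq2), with a median log2FC of 0.27. This median was 0.075 without HFD-KO replicate 1 and 0.47 without HFD-KO replicate 2. Susd4 had 9.25 and 8.29 CPM in HFD-WT and 15.04 and 14.94 CPM in HFD-KO livers (log2FC 0.77 ± 0.11, adjusted p = 0.087 by edgeR). The complement gene C8b had 65.8 and 85.1 CPM and 112 and 130 CPM (adjusted p = 0.225 by edgeR), and Serpina1e, a protease inhibitor with close paralogs, had 94.9 and 252 CPM and 834 and 1597 CPM (adjusted p = 0.141 by edgeR). Of the most abundant genes of the list, Mup3 did not overlap between the groups and Mup20 did: Mup3 had 2195 and 2011 CPM and 3261 and 2409 CPM, whereas Mup20 had 6582 and 6060 CPM and 6517 and 3782 CPM.

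Of 20 tested female-predominant genes, 7 higher and 4 lower genes had an unadjusted p under 0.05 (1 higher and 1 lower at an adjusted p under 0.05 by DESeq2), with a median log2FC of -0.16. This median was 0.10 without HFD-KO replicate 1 and -0.00057 without HFD-WT replicate 2, so its sign and its place below the male-predominant median rested on HFD-KO replicate 1. Cyp2a4, a steroid hydroxylase, had 21.2 and 18.9 CPM in HFD-WT and 9.95 and 7.37 CPM in HFD-KO livers (log2FC -1.21 ± 0.15, adjusted p = 0.058 by edgeR). Cyp2c69 was near the detection limit in HFD-WT livers, with 0.0345 and 0.109 CPM, and had 0.494 and 5.11 CPM in HFD-KO livers. This gene, which is among the 7 higher ones, passed the filter only through the HFD-KO libraries, so it could only come out higher. It had 1 and 3 reads in HFD-WT and 13 and 122 reads in HFD-KO livers. Cux2, also among the 7 higher ones, rested on HFD-KO replicate 2 and is on the list of regulators as well. Slc22a26 had 0.966 and 1.31 CPM in HFD-WT and 2.09 and 3.73 CPM in HFD-KO livers (adjusted p = 0.358 by edgeR). Cyp2b9 had a log2FC of -0.25 (adjusted p = 0.515 by edgeR). Genes of known female bias thus stood on both sides of 0, and the difference between the 2 lists was not tested.

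**Figure D5:**
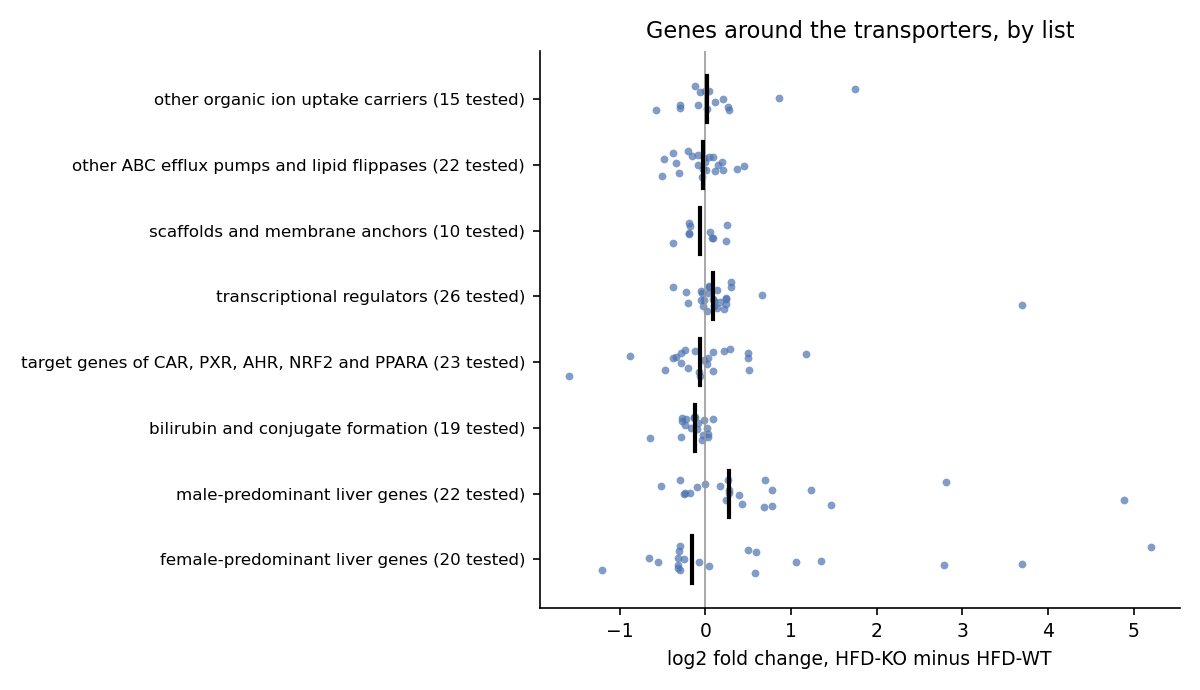
Log2FC (HFD-KO over HFD-WT) of the tested genes of each list, with 1 point for each gene (spread vertically for legibility) and a black bar at the median of the list. The medians lie between -0.16 (female-predominant genes) and 0.27 (male-predominant genes), which became 0.10 and 0.075 without HFD-KO replicate 1, and 0 points stand for a gene with an adjusted p under 0.05 by edgeR.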

How the data were processed

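Whole-liver RNA was extracted with TRIzol, and directional libraries were sequenced as paired ends on a DNBSEQ-G400RS. The authors aligned the reads with the MGI Tech tool and quantified genes in Partek Genomics Suite with GENCODE. The methods name mm10 and the submitters' processing notes name mm10 and GRCm39, and the gene positions of the table, given here, are those of GRCm39. Strand settings and the treatment of multiply aligned reads are not given in the sources used here. The deposited counts are whole numbers without normalization and were the only values tested. The deposited RPKM values (counts scaled by exon length and library total) served to derive exon lengths. The deposited TPM values were used for the order of levels as an alternative. The deposited CPM column, in effect a score because it does not sum to the stated scale, was not used.

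The tests used edgeR 4.0.16 under R 4.3.3: filterByExpr, TMM, two-sided quasi-likelihood test of HFD-KO against HFD-WT, Benjamini-Hochberg adjustment over 12967 genes. Libraries were unpaired. DESeq2 1.42.0, other scalings, no filter, a replicate block and leaving out each library were the alternatives. With 2 libraries against 2, an exact permutation test cannot give a p below 0.333. Replicates differed by more than counting error over all genes (chi-square per degree of freedom of 10.3 in HFD-WT and 41.0 in HFD-KO). Poisson intervals cover counting error only. The members and lists were chosen with earlier results of these data known. Named were every member, Adarb1, the 3 genes with the smallest p and the 2 with the highest level of each list (or those with an adjusted p under 0.05), and the 5 genes most like Slco1a1. Some items that this rule names are not reported here. Sequences came from RefSeq. Tables were made in Python 3.11.15 with pandas 2.3.3 and scipy 1.17.1.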

Additional observations from a re-analysis of the deposited data

How the results depend on the processing

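Over all genes, 7 were higher and 3 lower at an adjusted p under 0.05. The numbers were 4 and 2 with the library total as scaling, 55 and 60 with DESeq2's Wald test, 81 and 81 without the filter, 12 and 8 with the replicate block, and from 0 to 376 higher and from 0 to 329 lower when each library was left out; the cause was not tested. Same-numbered libraries share only a number: the correlation of their deviations from the group means was -0.076 across genes. Of the members, 1 was higher and 0 were lower; without the filter 2 were higher, and the leave-one-out range was 0 to 2 higher and 0 to 1 lower. The member log2 fold changes stayed between 1.64 and 1.70 for Slco1a1, 0.43 and 0.67 for Slco2a1, -0.31 and -0.15 for Slco1a4, -0.36 and -0.18 for Abcg2, -1.16 and -0.57 for Abcc4 and -0.48 and -0.04 for Slco3a1, while those of Slco2b1 (-0.05 to 0.03) and Abcc2 (-0.15 to 0.02) took either sign. The order of levels was the same with the deposited TPM. TPM are also counts divided by exon length, so this is no independent check of the order.

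For the lists, where edgeR called 0 genes, DESeq2's Wald test called 1 uptake carrier higher, 2 receptor targets higher and 3 lower, 3 male-predominant genes higher, and 1 female-predominant gene higher and 1 lower. Without the filter, 2 uptake carriers were higher, 1 receptor target higher and 3 lower, 5 male-predominant genes higher, and 3 female-predominant genes higher and 1 lower. The replicate block called 1 male-predominant gene (Serpina1e, adjusted p = 0.0064) higher and 1 female-predominant gene (Cyp2a4, adjusted p = 0.035) lower, and changed no other list's count. When each library was left out, the counts ranged, for higher and lower genes, from 0 to 2 and 0 to 1 for uptake carriers, 0 to 5 and 0 to 0 for ABC pumps, 0 to 1 and 0 to 0 for scaffolds, 0 to 2 and 0 to 2 for regulators, 0 to 4 and 0 to 5 for receptor targets, 0 to 0 and 0 to 4 for conjugation genes, 0 to 12 and 0 to 2 for male-predominant genes, and 0 to 8 and 0 to 3 for female-predominant genes.

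Some log2 fold changes near 0 took either sign when each library was left out: they ranged from -0.17 to 0.051 for Hnf4a, -0.078 to 0.018 for Rxra, -0.026 to 0.055 for Ugt1a1 (-0.030 with the library total as scaling), -0.090 to 0.25 for Ugt2b5 and -0.74 to 0.043 for Mup20. The fewest reads stood behind Slco3a1 (62 to 100 per library) and Abcc4 (48 to 134), and their HFD-WT replicates lay farther apart than counting error. Leaving out 1 library also moved list medians: from 0.075 to 0.47 for male-predominant, -0.22 to 0.10 for female-predominant, -0.12 to 0.020 for scaffold, -0.096 to 0.0051 for ABC and 0.0029 to 0.12 for regulator genes. Without HFD-KO replicate 2, the log2 fold changes of Slc22a7 (0.43), Abca8a (0.21), Rdx (0.14), Cyp4a14 (0.32), Ugt1a6a (-0.17), Ugdh (-0.16), Slc22a26 (0.88) and Cyp2c69 (2.72) were over 1.5 times nearer to 0, as were those of Abcb1a (-0.33) and Mup3 (0.20) without HFD-KO replicate 1, Slc10a2 (-0.24) without HFD-WT replicate 2 and Cyp2b9 (-0.15) without HFD-WT replicate 1.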
